A study of Homo sapiens with 6 samples.

Results

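The MYC, MAX and MXD network factors were the 10 genes MYC, MYCN, MYCL, MAX, MXI1, MXD1, MXD3, MXD4, MNT and MLX, taken by gene name from a count table of 62703 genes in 22Rv1 prostate cancer cells. All 10 were found and all 10 passed the expression filter, among 17901 genes tested. These proteins share a basic helix-loop-helix leucine zipper and act as pairs. MYC proteins bind DNA together with MAX at the E-box CACGTG and activate genes of growth, ribosome production and the cell cycle, whereas the MXD proteins and MNT also pair with MAX, occupy the same sites and recruit corepressors. MLX takes the place of MAX in a parallel branch with the glucose-sensing factors MLXIP (MondoA) and MLXIPL, and it also pairs with some MXD proteins and with MNT. In prostate cancer, MYC is known as a driver of proliferation.

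The study asked what knockdown of MED12 does in 22Rv1, a cell line that responds to androgen and resists the androgen receptor inhibitor enzalutamide. MED12 belongs to the kinase module of Mediator, the coactivator complex that connects transcription factors with RNA polymerase II. Cells received 25 pmol of a small interfering RNA pool 24 hours after seeding, either a non-targeting pool (siCtrl, n = 3) or a pool against MED12 (siMED12, n = 3), had their medium changed after 6 hours and were harvested on day 3. Poly(A) RNA was sequenced as strand-specific libraries, each labelled with a replicate number from 1 to 3, and both groups shared the cell line and the transfection reagent. One established cell line was used, so the replicates carry no variation between donors.

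The libraries held 16136699 to 17012788 counts. MED12 mRNA was 67.8, 77.7 and 72.6 CPM (counts relative to the scaled library size) in siCtrl against 23.9, 14.97 and 30.1 CPM in siMED12, so each siMED12 library lay below each siCtrl library. Its log2 fold change was -1.66 with an adjusted p of 0.0314 (edgeR quasi-likelihood test). All 11 prostate luminal markers were expressed, with a summed level of 2792 to 3132 CPM in siCtrl and 2296 to 2659 CPM in siMED12. Epithelial markers (4 of 4 passed the expression filter) summed to 1749 to 2001 CPM in siCtrl and 1564 to 1738 CPM in siMED12. Within both lists, single markers went both ways. HOXB13 was 214 to 287 CPM in siCtrl and 296 to 365 CPM in siMED12, and CDH1 426 to 452 against 519 to 571 CPM. KLK4 was lower with siMED12, at 366 to 402 against 148 to 198 CPM, and so was KRT8, at 736 to 934 against 566 to 674 CPM. Of the neuroendocrine markers 5 of 7 passed, at 295 to 340 CPM in siCtrl and 261 to 304 CPM in siMED12, mostly ENO2 and SYP. Of the fibroblast and muscle markers 4 of 7 passed, mainly COL1A1 and LUM, at 28.4 to 40.5 CPM and 29.4 to 44.7 CPM. Only 1 of 6 leukocyte markers and 0 of 4 endothelial markers passed the filter. The part of these cell type markers in the differences with siMED12 was not tested. The share of counts from mitochondrially encoded genes followed the replicate number: it was 4.43% and 4.79% in both libraries of replicate 1, 6.31% and 6.03% in those of replicate 2, and 10.0% and 10.1% in those of replicate 3. Its part in the differences between replicate numbers reported here was not tested. In bulk RNA, fewer cells that express a gene and less of its mRNA per cell cannot be told apart.

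The E-box is the letter string through which the network acts, and it can stand upstream of the network's own genes. It was searched on both strands, where it reads the same, in the 250 bases upstream of RefSeq transcription starts (GRCh38.p14). Of the 9 members with an entry, MXD4, MNT and MLX held CACGTG and the other 6 did not. MYC had no entry, so its upstream sequence was not searched. The string occurred in 6.34% of all 35116 windows and in 11.1% of the tested genes that had one. The upstream stretches of these 3 genes are shown because they place the network's own motif beside 2 members that changed with siMED12, MXD4 and MNT, and 1 that did not pass, MLX. The capitals mark the E-box, and bases that fall in annotated exons were left out.
MXD4 upstream (chr4:2262110-2262359, minus strand): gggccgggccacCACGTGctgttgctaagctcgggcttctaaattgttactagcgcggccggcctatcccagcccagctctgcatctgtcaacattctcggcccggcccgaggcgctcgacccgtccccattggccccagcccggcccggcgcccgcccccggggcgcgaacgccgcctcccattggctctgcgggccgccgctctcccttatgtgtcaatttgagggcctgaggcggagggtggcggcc
MNT upstream (chr17:2401105-2401310, minus strand): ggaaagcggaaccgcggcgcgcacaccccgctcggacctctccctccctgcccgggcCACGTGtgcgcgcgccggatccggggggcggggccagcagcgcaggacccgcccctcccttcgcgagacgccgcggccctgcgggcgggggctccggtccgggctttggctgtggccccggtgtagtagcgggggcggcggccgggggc
MLX upstream (chr17:42566850-42567071, plus strand): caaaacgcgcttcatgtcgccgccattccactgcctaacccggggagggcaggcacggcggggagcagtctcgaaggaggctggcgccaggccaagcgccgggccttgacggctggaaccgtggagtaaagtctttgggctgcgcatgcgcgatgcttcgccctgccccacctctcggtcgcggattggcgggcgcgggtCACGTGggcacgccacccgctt
The E-box began 238 bases before the start of MXD4, 193 before that of MNT and 50 before that of MLX. A match in these letters is a description of the sequence, and no binding was measured.

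The direct comparison of siMED12 with siCtrl called 0 of the 10 members at an adjusted p below 0.05, against 0.564% of all tested genes. By the DESeq2 Wald test and by limma-trend the count was also 0, and at an unadjusted p below 0.05 each of the 3 tests counted 1 member. Equal replicate numbers marked libraries that shared their deviations, so the comparison was also made with the replicate number as a block. With the block, 3 of 10 members passed, against 33.3% of all tested genes: MYC and MNT were lower (16.2% of all genes were called lower) and MXD4 was higher (17.1% of all genes were called higher). The members as a group were thus called about as often as genes in general. The same 3 moved in 1 direction in all 3 pairs, as did 57.6% of all genes. No member had its 3 siMED12 libraries wholly above or below its 3 siCtrl libraries, a separation found in 22.1% of all genes.

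**Figure D1:**
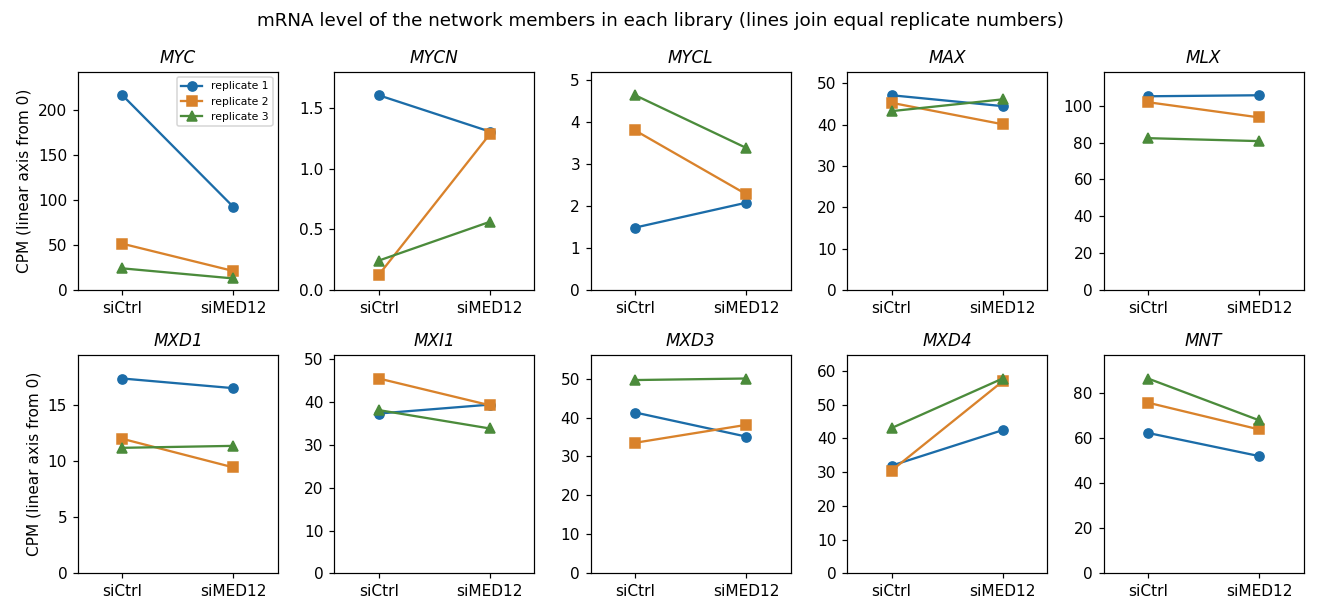
Level of each of the 10 members in CPM (vertical axis, linear from 0, its own range per panel) in siCtrl and siMED12, with a line joining the libraries of each replicate number. The MYC lines all fall but start at 217, 51.7 and 24.3 CPM, the MXD4 lines all rise, the MNT lines all fall, and the lines of MAX, MLX, MXD1, MXI1 and MXD3 are nearly level or cross.

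MYC, the member best known as an oncogene, showed a decrease with siMED12 in each pair and a larger difference between replicate numbers. The gene (ENSG00000136997.22) lies on the plus strand of chromosome 8 at 127735434 to 127742951 (GRCh38). In replicate 1 its level was 217 CPM with siCtrl and 92.5 CPM with siMED12, in replicate 2 it was 51.7 against 21.3 CPM, and in replicate 3 it was 24.3 against 13.02 CPM. These levels rest on 3646, 817 and 398 counts with siCtrl and on 1557, 364 and 208 with siMED12. The siMED12 library of replicate 1 was therefore above the siCtrl libraries of replicates 2 and 3, and the groups overlapped. Group means were 97.6 CPM ± 104 and 42.3 CPM ± 43.7 (SD, n = 3 each), with SDs as large as the means. The change within pairs was -57.4%, -58.8% and -46.3%. In edgeR the log2 fold change was -1.21 (SE 0.89) at an adjusted p of 0.586 when no block was used, and -1.18 (SE 0.07) at 3.91e-17 in the blocked fit. Leaving out siCtrl replicate 1 turned the unblocked value to 0.14, whereas leaving out each pair in turn kept the blocked value between -1.25 and -1.13. Of 10671 genes with a mean of at least 10 CPM, 22 had a larger blocked change with siMED12 than MYC.

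MYCN and MYCL, the paralogs of MYC known from neural and small cell tumours, were near the lower limit of detection. MYCN (ENSG00000134323.13, chromosome 2, 15940550 to 15947007, plus strand) had 27, 2 and 4 counts with siCtrl and 22, 22 and 9 with siMED12. The siMED12 library was below siCtrl in pair 1 and above it in pairs 2 and 3, and with counts of 2 and 4 in the siCtrl libraries the size of that difference cannot be read. Its log2 fold change was 0.66 (SE 0.80, adjusted p 0.769) unblocked and 0.89 (SE 0.52, adjusted p 0.202) blocked. MYCL (ENSG00000116990.11, chromosome 1, 39895428 to 39902256, minus strand) had 25, 60 and 76 counts with siCtrl and 35, 39 and 54 with siMED12, more in pair 1 and fewer in the other pairs. Its log2 fold change was -0.36 (SE 0.42, adjusted p 0.762) and with the block -0.31 (SE 0.25, adjusted p 0.379).

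MAX, the partner that MYC, MXD and MNT proteins share, varied least. MAX (ENSG00000125952.20, chromosome 14, 65006174 to 65102695, minus strand) stood at 47.1, 45.3 and 43.3 CPM with siCtrl and at 44.5, 40.1 and 46.1 CPM with siMED12. Its highest library exceeded its lowest by a factor of 1.17, compared with 16.7 for MYC. The log2 fold change was -0.05 (SE 0.11, adjusted p 0.870), and -0.06 (SE 0.07, adjusted p 0.591) with the block. MLX (ENSG00000108788.12, chromosome 17, 42567072 to 42573239, plus strand), the partner in the parallel branch, had 105, 102 and 82.4 CPM with siCtrl and 106, 93.7 and 80.8 CPM with siMED12. Its levels paired by replicate number, with replicate 3 lowest in both groups. Its log2 fold change was -0.05 both without (SE 0.13, adjusted p 0.918) and with the block (SE 0.05, adjusted p 0.528).

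Among the antagonists, MXD4 was higher and MNT lower with siMED12 in the blocked fit, and MXD1, MXI1 and MXD3 did not pass. MXD4 (ENSG00000123933.17, chromosome 4, 2247432 to 2262109, minus strand), an MXD protein linked to differentiated and resting cells, was 31.9, 30.5 and 43.1 CPM with siCtrl and 42.5, 56.9 and 57.8 CPM with siMED12. Only siCtrl replicate 3 and siMED12 replicate 1 overlapped, at 43.1 and 42.5 CPM. The rise within pairs was 32.9%, 86.8% and 34.1%, and the means were 35.2 CPM ± 6.90 and 52.4 CPM ± 8.61 (SD, n = 3 each). The log2 fold change was 0.57 (SE 0.18, adjusted p 0.169 by edgeR) and with the block 0.58 (SE 0.08, adjusted p 1.29e-07). MXD4 was the member past an unadjusted p of 0.05 without the block, at 0.0107. It passed without the block only when no expression filter was applied (adjusted p 0.0484). Leaving out pair 2 gave the lowest blocked value, 0.39.

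MNT (ENSG00000070444.15, chromosome 17, 2384073 to 2401104, minus strand), a broadly expressed repressor that pairs with MAX and counters MYC, went the other way. Its level was 62.3, 75.7 and 86.4 CPM with siCtrl and 52.0, 63.8 and 67.9 CPM with siMED12, lower by 16.5%, 15.7% and 21.4% of siCtrl in the pairs. The log2 fold change was -0.29 (SE 0.15, adjusted p 0.409) and with the block -0.29 (SE 0.06, adjusted p 1.25e-04), and it stayed between -0.33 and -0.25 when each pair was left out. The sizes of these changes differ: MYC fell to about 0.433 times its siCtrl mean, MNT to 0.819 times, and MXD4 rose to 1.49 times.

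MXI1 (ENSG00000119950.21, chromosome 10, 110207605 to 110287365, plus strand), which encodes the MXD2 protein, was 37.4, 45.5 and 38.2 CPM with siCtrl and 39.4, 39.3 and 33.9 CPM with siMED12. MXD1 (ENSG00000059728.11, chromosome 2, 69897688 to 69942945, plus strand), known for its induction during differentiation, was 17.3, 11.96 and 11.2 CPM with siCtrl and 16.5, 9.41 and 11.3 CPM with siMED12. MXD3 (ENSG00000213347.11, chromosome 5, 177301461 to 177312757, minus strand), the MXD member associated with proliferating cells, was 41.3, 33.5 and 49.6 CPM with siCtrl and 35.1, 38.1 and 50.0 CPM with siMED12. In these 3 genes the pairs moved in different directions and the groups overlapped throughout. With the block the log2 fold change was -0.10 (SE 0.07) for MXI1, -0.13 (SE 0.12) for MXD1 and -0.01 (SE 0.07) for MXD3, with adjusted p-values of 0.309, 0.455 and 0.911. When scaling used the library size only, the value for MXD3 was 0.026 with the block and 0.021 without it.

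**Figure D2:**
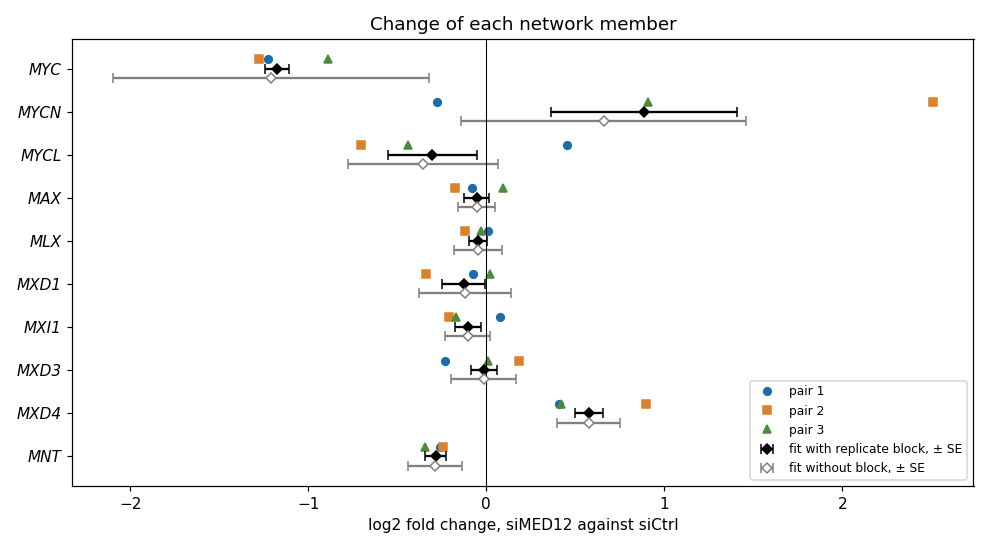
Log2 fold change of siMED12 against siCtrl (horizontal axis) for each member: coloured points are the 3 pairs, black diamonds the estimate with the replicate block and open diamonds the estimate without it, both with bars of 1 SE. The MYC estimates are nearly equal (-1.18 and -1.21) but the SE is 0.07 with the block and 0.89 without it, and MXD4 and MNT are the other members whose blocked bars stay clear of 0 with all 3 pairs on 1 side.

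Levels of different genes were set side by side per kilobase of exon. On that scale MLX was the most abundant member, first in 5 of 6 libraries at a mean of 22.7 ± 2.89 CPM per kilobase with siCtrl and 21.9 ± 2.92 with siMED12 (SD, n = 3 each). In siCtrl replicate 1, MYC ranked first at 35.5 CPM per kilobase, while in siCtrl replicate 3 and in siMED12 replicates 2 and 3 it had rank 7, at 3.97, 3.48 and 2.13. MXD3, MNT, MAX and MXI1 followed in siCtrl at 8.74 ± 1.70, 8.60 ± 1.39, 7.23 ± 0.307 and 6.83 ± 0.764 CPM per kilobase, and each differed from the next by less than the larger of their SDs. MXD4 was at 5.12 ± 1.00 with siCtrl and, at 7.62 ± 1.25 with siMED12, moved from rank 7 to rank 3 by mean. MXD1 at 2.12 ± 0.527, MYCL at 0.665 ± 0.328 and MYCN at 0.239 ± 0.299 were the lowest in siCtrl, and the SDs of MYCL and MYCN overlapped. With the length of the canonical transcript, an alternative added after seeing the data, MXD3 (38.9 ± 7.54) came level with MLX (40.9 ± 5.21 CPM per kilobase, siCtrl). MAX (22.5 ± 0.955) then stood above MNT (15.2 ± 2.46), so the order of the members depends on the transcript assumed. For MXD3 that length was 1067 bases against 4743 over all exons, while the counts remained those of the whole gene.

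The balance of MYC mRNA to the summed mRNA of its antagonists MXD1, MXI1, MXD3, MXD4 and MNT was described per kilobase of exon. The ratio was 1.20, 0.284 and 0.114 with siCtrl and 0.525, 0.110 and 0.0622 with siMED12. The antagonists together stayed between 28.8 and 34.9 CPM per kilobase in all 6 libraries, so the ratio moved with MYC. Within pairs it changed by -56.3%, -61.4% and -45.4%, a mean of -54.4% ± 8.18 (SD, 3 pairs). Across replicate numbers the siCtrl value of replicate 1 was the only one of the 6 above 1. With canonical transcript lengths, the alternative named above, that library's ratio was 0.793, so its place above 1 depends on the lengths assumed.

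**Figure D3:**
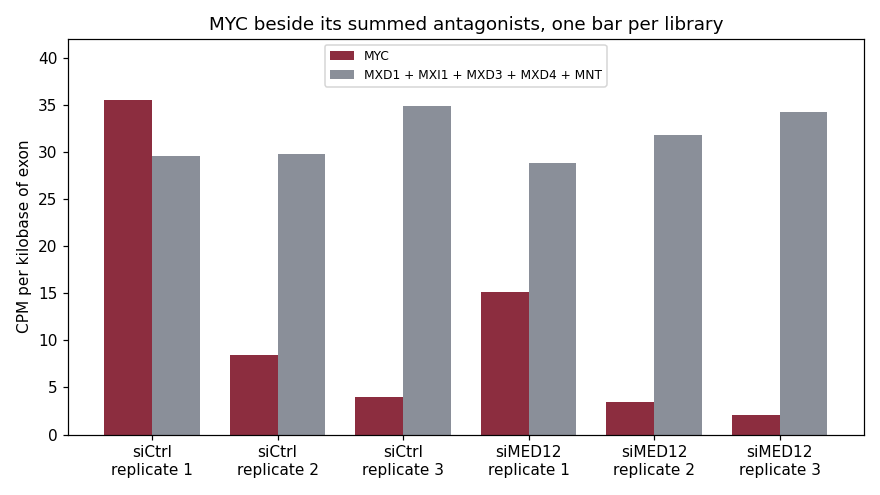
CPM per kilobase of exon (vertical axis, linear from 0) of MYC and of its 5 antagonists summed, 1 bar each per library without an error bar. MYC ranges from 35.5 in siCtrl replicate 1 to 2.13 in siMED12 replicate 3, while the summed antagonists lie between 28.8 and 34.9.

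The members were then followed across replicate numbers, a comparison of cultures that the labels distinguish only by number. In the additive model of treatment and replicate number, 8 of 10 members differed between numbers at an adjusted p below 0.05, against 47.1% of all tested genes. MAX (adjusted p 0.573) and MXI1 (adjusted p 0.0820) did not pass. MYC had by far the largest difference of the well-expressed members: relative to replicate 1 its log2 level was -2.09 (SE 0.08) in replicate 2 and -3.03 (SE 0.08) in replicate 3, with an adjusted p of 1.51e-28 (edgeR). Of the 10671 genes with a mean of at least 10 CPM, 5 had a larger difference between replicates 3 and 1. The highest siCtrl library held 8.94 times the MYC level of the lowest, and for siMED12 the factor was 7.10. Among the other members with more than 10 CPM on average, the highest library of all 6 exceeded the lowest by factors of 1.17 to 1.89.

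The other members differed between numbers in both directions. MXD1 and MLX had lower levels in replicate 3 than in replicate 1, by log2 differences of -0.59 (SE 0.15, adjusted p 2.31e-04) and -0.37 (SE 0.06, adjusted p 2.55e-05). MNT, MXD4 and MXD3 had higher levels in replicate 3, by 0.43 (SE 0.07, adjusted p 1.30e-05), 0.44 (SE 0.09, adjusted p 7.23e-04) and 0.38 (SE 0.09, adjusted p 5.69e-05). MYCL (1.14, SE 0.31, adjusted p 0.00867) and MYCN (-1.94, SE 0.64, adjusted p 0.0279) rest on few counts. The call of MYCL was lost without siCtrl replicate 1 (adjusted p 0.283), without siCtrl replicate 3 (0.0657) and in the DESeq2 likelihood ratio test (0.109). The call of MYCN was lost without siCtrl replicate 1 (0.648), without siCtrl replicate 3 (0.0893) and without siMED12 replicate 3 (0.0540), and DESeq2 gave it no adjusted p. MNT and MXD4, which changed oppositely with siMED12, both stood highest in replicate 3 of each group. Whether the change with siMED12 differs between replicate numbers could not be tested, because each number holds 1 library per group.

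By the root mean square distance of log2 CPM centred per gene over the 6 libraries, RGS2, a regulator of G protein signalling, was the gene most like MYC among 10670 genes, at 0.475 against a median of 1.37. It stood at 428, 186 and 102 CPM with siCtrl and at 295, 102 and 71.2 CPM with siMED12. CDH6, MAP3K1, FAM111B and RSBN1 came next, at distances of 0.727, 0.744, 0.781 and 0.782. All 5 were chosen for their likeness to MYC over the same libraries, so no test of their differences with siMED12 is given. Among the members themselves the closest were MXI1 and MLX at 0.135 and MXI1 and MAX at 0.159, and MYC was at least 1.11 from each other member. These distances describe 6 libraries.

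Of the other network partners, all 4 were tested. MLXIP, the MondoA partner of MLX, was 190, 209 and 196 CPM with siCtrl and 175, 172 and 190 CPM with siMED12, lower in the blocked fit, at a log2 fold change of -0.15 (adjusted p 0.00904), and at -0.11 (adjusted p 0.0860) without pair 2. TFAP4, a helix-loop-helix factor that is a known MYC target, was lower in the blocked fit, at a log2 fold change of -0.58 (adjusted p 1.49e-07), from 46.0, 39.1 and 39.4 CPM to 35.0, 24.3 and 24.8 CPM. MLXIPL and MGA, a MAX partner that acts as a repressor, had log2 fold changes of 0.12 and -0.07 (adjusted p 0.486 and 0.307 with the block). Without the block none of these 4 genes passed, where 0.564% of all genes did. With it 2 were lower and 0 higher, where 16.2% and 17.1% of all genes were called in these directions.

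Of 8 genes described as targets of MLX and MondoA, 6 were tested. With the block 4 were lower and 0 higher, where 16.2% and 17.1% of all genes were called in these directions. HK2, the hexokinase that traps glucose in the cell, changed by -44.0%, -48.5% and -32.6% in the pairs (log2 fold change -0.78, adjusted p 4.15e-15 with the block), and PFKFB3, a regulator of glycolysis, by -32.9%, -47.2% and -35.8% (-0.71, adjusted p 1.10e-08). FASN, fatty acid synthase, was lower with a log2 fold change of -0.36 (adjusted p 2.58e-11). TXNIP and ARRDC4, the arrestin genes most closely tied to MondoA, had values of opposite sign: TXNIP had a log2 fold change of -0.22 (adjusted p 4.34e-04 with the block) and ARRDC4 of 0.17 (adjusted p 0.0776). Without pair 1 the call of TXNIP was lost (-0.14, adjusted p 0.0812). TXNIP was also far lower in replicate 3 than in replicate 1 (-1.29). The median of the 6 genes was -0.29 with the block, against 0.02 over all genes tested.

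Genes known to be activated by MYC were lower with siMED12 almost throughout. Of 38 listed genes, 37 were tested, and 34 were lower and 0 higher with the block, against 16.2% and 17.1% of all genes. Without it 8 were lower, against 0.413% of all genes: BOP1, DKC1, E2F2, EIF4EBP1, FBL, MYBBP1A, NOP16 and SRM. SRM, spermidine synthase, was 129, 142 and 113 CPM with siCtrl and 77.8, 79.8 and 63.4 CPM with siMED12 (log2 fold change -0.80, adjusted p 0.0439 by edgeR without the block). FBL, the nucleolar methyltransferase fibrillarin, was 185, 202 and 204 CPM against 125, 122 and 130 CPM (-0.65, adjusted p 0.0297). EIF4EBP1, a repressor of cap-dependent translation, had a log2 fold change of -0.91 (adjusted p 0.0410), and the cell cycle factor E2F2 of -0.63 (adjusted p 0.0297). The 4 other genes, which serve ribosome production or pseudouridylation (BOP1, NOP16, MYBBP1A and DKC1), lay between -0.74 and -0.56. These unblocked calls were lost in most fits that left out 1 library, while the log2 fold changes of all 8 genes stayed below 0. The range was widest for EIF4EBP1, at -1.02 to -0.83, and narrowest for E2F2, at -0.68 to -0.61. In the blocked fit all 8 kept their call whichever pair was left out. Without siCtrl replicate 1 or 2, or without siMED12 replicate 1 or 2, edgeR called 0 of all genes, and 2017 to 2313 had an unadjusted p below 0.05. Without siCtrl replicate 3 it called 5 higher and 37 lower, and without siMED12 replicate 3 it called 8 and 29. In 31 of the 37 genes the 3 siMED12 libraries lay wholly below the 3 siCtrl libraries, as in 10.9% of all genes.

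Others passed with the block alone. TERT, the telomerase catalytic subunit, had the largest decrease on the list (log2 fold change -1.39, SE 0.13, adjusted p 3.39e-11), from 11.2, 15.0 and 23.8 CPM to 4.69, 5.61 and 8.58 CPM. ODC1, ornithine decarboxylase, fell by 34.2%, 35.4% and 31.2% in the pairs (adjusted p 5.73e-15), and CDK4 by 21.9%, 28.0% and 18.8% (adjusted p 2.89e-09). The genes that did not pass were EIF4E, EIF4A1 and PRDX3, and CCND2 was not tested, with 1 count in all libraries together. Of the 31 genes on the list with a RefSeq window, 10 (32.3%) held the E-box CACGTG within 250 bases upstream, against 11.1% of tested genes with a window. Among the 10 were ODC1, SRM, CDK4 and TERT. Across all tested genes, the 1300 with that E-box had a median log2 fold change of -0.01 and the 10427 without it 0.03. With the block 20.7% and 17.5% of these were called lower, and 18.8% and 20.6% higher, so the string alone went with a small difference.

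Across replicate numbers, the median of the targets differed little while MYC mRNA differed widely. The relation between MYC and the targets was not tested. The median log2 change of the 37 genes with siMED12 was -0.40, -0.56 and -0.43 in the 3 pairs, while the MYC mRNA of the siCtrl libraries in these pairs ranged from 217 to 24.3 CPM. Between replicates 3 and 1, where MYC differed by -3.03, the targets had a median difference of -0.02, with single genes from -0.61 to 1.00, and all genes had a median of -0.01. Of the 37 genes, 12 were called lower and 11 higher in replicate 3 than in replicate 1, against 25.7% and 21.4% of all genes. TERT had the highest of these differences (1.00, SE 0.16). The lists were written with earlier results of these data known, so their counts are descriptions.

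**Figure D4:**
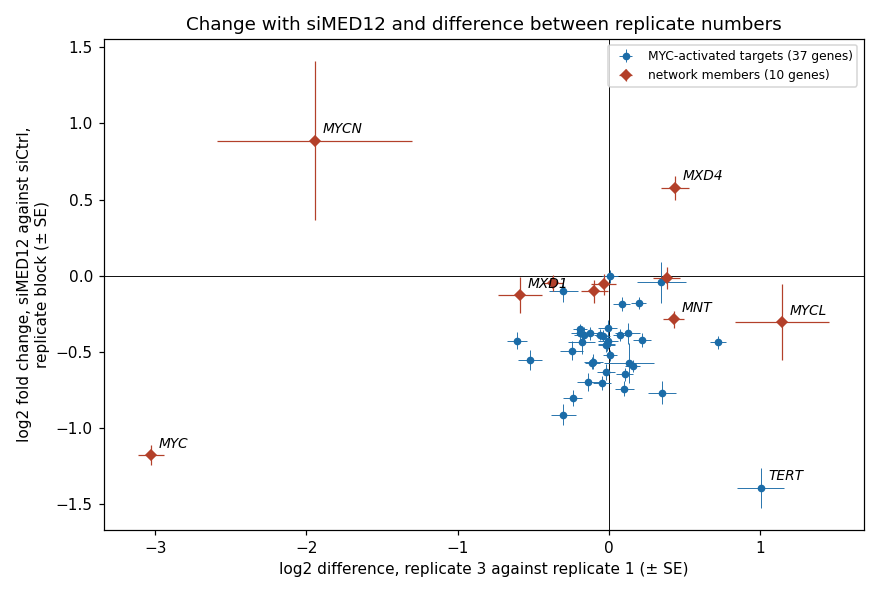
Each point is a gene, placed by its log2 difference between replicates 3 and 1 (horizontal axis) and its log2 fold change with siMED12 in the blocked fit (vertical axis), with bars of 1 SE: blue for the 37 MYC-activated targets, red for the 10 members. The targets gather below 0 on the vertical axis and around 0 on the horizontal axis (medians -0.44 and -0.02), whereas MYC lies far left at -3.03 and MXD4 stands above 0.

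Of 16 tested genes known to be repressed by MYC, 2 were higher and 5 lower with the block, where 17.1% of all genes were called higher and 16.2% lower. Their median log2 fold change with the block was -0.06, against 0.02 over all genes. TXNIP, described above among the MLX and MondoA targets, was also on this list and 1 of the 5 lower genes. The cell cycle inhibitors had values of opposite sign: CDKN1B, which encodes p27, was higher with a log2 fold change of 0.27 (adjusted p 1.53e-06 with the block) and CDKN1A, which encodes p21, lower with a log2 fold change of -0.24 (adjusted p 1.33e-04). ITGB1, integrin beta 1, was the other gene called higher (0.11, adjusted p 0.0323), but its value was -0.04 with the GC and length correction and its call was lost without any 1 of the pairs (adjusted p 0.0670 to 0.226). KLF4, a transcription factor, was lower at -0.30. DUSP1, an immediate-early phosphatase, was lower at -0.43, with changes of -45.9%, -14.1% and -10.9% in the pairs, and its value was -0.21 (adjusted p 0.289) without pair 1.

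The proteins that MYC recruits were measured through 19 cofactor genes, of which 5 were higher and 6 lower with the block, against 17.1% and 16.2% of all genes. Their median was 0.02, as over all genes. The ATPase RUVBL1, the arginine methyltransferase PRMT5 and the acetyltransferase KAT2A were lower with log2 fold changes of -0.44, -0.40 and -0.34. The elongation kinase CDK9, the chromatin remodelling factor BPTF and PAF1 were higher with log2 fold changes of 0.19, 0.16 and 0.16. Leaving out pairs ended each of these 3 calls: CDK9 failed to pass whichever pair was left out (adjusted p 0.0629 to 0.123), BPTF did not pass without pair 1 (0.123), and PAF1 was at 0.065 without pair 2 (0.467). Of the 10 corepressor genes of the MXD and MNT side, 3 were higher and 2 lower: ARID4B (0.45), SIN3B (0.25) and NCOR1 (0.18) against SAP30 (-0.42) and RBBP7 (-0.15). All genes were called higher at 17.1% and lower at 16.2%, the median of the 10 was -0.03, and RBBP7 did not pass without pair 1 (adjusted p 0.0787). SIN3A and the deacetylases HDAC1 and HDAC2 were among the 5 that did not pass.

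Of 21 genes of MYC protein turnover, 5 were higher and 4 lower with the block. These shares are close to the 17.1% and 16.2% of all genes, and the median was 0.0031. The ubiquitin ligase subunit SKP2, the deubiquitinase USP36 and the phosphatase inhibitor SET were lower with log2 fold changes of -0.26, -0.34 and -0.24, and the PP2A subunit PPP2R5A and the ligase subunits TRPC4AP and FBXO28 were higher with log2 fold changes of 0.27, 0.24 and 0.23. FBXW7, the ligase subunit best known for MYC degradation, did not pass (0.09, adjusted p 0.444 with the block). Of 21 genes that act on MYC transcription or mRNA, 4 were higher and 7 lower, again against 17.1% and 16.2% of all genes, with a median of -0.03. E2F1, NOTCH1 and MAZ were lower with log2 fold changes of -0.40, -0.37 and -0.30, and IGF2BP2, an RNA-binding protein that stabilizes MYC mRNA, LEF1 and STAT3 were higher with log2 fold changes of 0.36, 0.35 and 0.18. These 3 calls depended on single pairs: IGF2BP2 was at 0.21 (adjusted p 0.181) without pair 3, LEF1 at 0.23 (0.148) without pair 1, and STAT3 at 0.17 (0.0697) without pair 2 and 0.091 (0.381) without pair 3.

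Around the MYC gene, 6 of 15 listed neighbours were tested and 1 passed with the block, against 33.3% of all genes. PVT1, the long noncoding RNA next to MYC, was 17.9, 18.1 and 29.0 CPM with siCtrl and 14.7, 10.2 and 22.6 CPM with siMED12 (log2 fold change -0.47, SE 0.11, adjusted p 5.09e-04 with the block and 0.547 without it). Between replicates 3 and 1, PVT1 and MYC went opposite ways, with log2 differences of 0.66 and -3.03. CASC11, which shares 194 exonic bases with MYC on the opposite strand, had 28, 7 and 13 counts with siCtrl and 6, 3 and 5 with siMED12 and was not tested.

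Exons of each member overlap another annotated gene. MNT shares 1065 bases with a long noncoding RNA, MAX 822 bases with FNTB and MLX 775 bases with PSMC3IP, each on the opposite strand. MXD3 shares 926 bases with RAB24 on its own strand and 1148 bases with PRELID1 on the opposite strand, and MXD1 shares 237 bases with SNRNP27 on its own strand. MXD4 overlaps a microRNA gene by 80 bases. Whether the counting used the strand is not stated, so reads from these neighbours may be part of the counts or may have been dropped.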

How the data were processed

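The 6 libraries of 22Rv1 RNA were grouped by treatment (siCtrl, siMED12) and replicate number as the labels give them. The authors mapped and counted reads with Rsubread, an R package, against GRCh38.p13 and Gencode release 43, and deposited raw counts per gene. Whether strand was used, and what became of reads with several matches, was not stated. The deposited log2 CPM values, written with decimal commas, were recomputed from the counts (TMM scaling, prior count 2) and differed by at most 4.96e-09, so they hold no batch correction.

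Tests on the deposited counts used the quasi-likelihood F-test of edgeR (version 4.0.16; R version 4.3.3) after its expression filter and TMM scaling, two-sided, with the Benjamini-Hochberg adjustment over 17901 genes and calls at 0.05. Treatment was the only term, since the methods of the study name no block. One figure legend speaks of batch correction for a heatmap of these cells but does not say what the batch was, and the authors' own test may have held such a term. Replicate numbers were compared by testing both number terms together in the additive model. The study states biological replicates, and the p-values rest on the spread between these libraries. In edgeR that spread is estimated with information shared between genes. An SE or p-value therefore does not measure the spread of a single gene's pairs alone. The MXD4 pairs, for example, had log2 changes of 0.41, 0.90 and 0.42, beside a blocked SE of 0.08. Deviations from group means of log2 CPM correlated at 0.532, 0.373 and 0.643 where siCtrl and siMED12 had equal numbers and at -0.460 to -0.0233 where they had not. The numbers were therefore taken as pairing the libraries, and blocked values stand beside the results they change. Chi-square per degree of freedom between replicates was 10.3 to 40.7, so no library was a duplicate.

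CPM are counts relative to the TMM-scaled library size. Gene models came from Gencode release 44 (GRCh38), in which 99.9% of counted genes had an entry, and upstream sequence from the RefSeq table of GRCh38.p14. All values columns were mapped to a sample. The members and gene lists were chosen with earlier results of these data known, and the lists come from general knowledge. Named genes were the members, MED12, the other partners, genes chosen singly (PVT1, CASC11, TXNIP, ARRDC4, CDKN1A, ODC1, CDK4 and FBXW7, with 1 more not reported here), every list gene called without the block, up to 3 per list and direction with the largest blocked change and a mean of at least 10 CPM, and the 5 genes closest to MYC. Alternatives were 2 other scalings (DESeq2 size factors and library size), 2 other filters, DESeq2 version 1.42.0, limma version 3.58.1, the block alone and with a GC and length correction (loess span 0.5), and leaving out libraries or pairs. The procedure was also run on simulated data, and no outcome of that run is given here.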

Additional observations from a re-analysis of the deposited data

How the results depend on the processing

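The canonical transcript length was added after seeing the data. Of the alternative values for the members with siMED12, 154 kept direction and side of the threshold, 22 gained a call and 11 changed sign. Between replicate numbers 110 were unchanged, 6 lost the call and 2 changed sign. The counts leave out MYCN where DESeq2 gave it no adjusted p or where it did not pass the filter. It did not pass the minimum mean of 1 CPM, and it was in 2 of the 3 blocked fits without a pair. For the other named genes 705 kept both, 286 gained a call, 53 lost it and 20 changed sign. The cause of these changes was not tested. The ratio of MYC to its antagonists changed by -54.6%, -53.9% and -54.2% under its 3 alternatives.

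The number of members past the threshold with siMED12, 0, became 1 (MXD4) with no filter and 3 (MYC, MNT and MXD4) with the replicate block in every version: alone, with the GC and length correction, with library size only, with DESeq2 size factors and without each pair. Over all genes, 27 were higher and 74 lower. The replicate block raised these to 3058 and 2908, and to 2449 and 3357 when GC content and length were also corrected. Blocked fits scaled by library size only gave 3807 and 2413, and by DESeq2 size factors 2960 and 3069. They gave 2070 and 2578, 2199 and 2654, and 2375 and 2579 when replicates 1, 2 and 3 were left out. Of the unblocked fits, the Wald test of DESeq2 gave 319 and 482, no filter gave 186 and 290, and a minimum mean of 1 CPM gave 34 and 118. Scaling by library size only gave 31 and 49, which moved the share of calls that were higher from 26.7% to 38.8% (with the block, from 51.3% to 61.2%). Leaving out 1 library gave 0 to 8 higher and 0 to 37 lower. In edgeR, 0 genes passed without siCtrl replicate 1 or 2 or siMED12 replicate 1 or 2 (2017 to 2313 genes had an unadjusted p below 0.05), and other tools were not run on these subsets. The number of genes that differ between replicate numbers, 8429, became 5516 by the DESeq2 likelihood ratio test.

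Some log2 fold changes near 0 changed sign. MXD3 was 0.021 with library size only, 0.036 with block and correction, 0.026 with block and library size only, and 0.074 in the blocked fit without replicate 1. FBXW7 was -0.033 and ITGB1 -0.037 with block and correction, FBXW7 -0.012 in the blocked fit without replicate 1, and MAP3K1 0.013 without replicate 2. Leaving out 1 library at a time, the unblocked values ranged from -2.52 to 0.14 for MYC, -0.40 to 0.080 for MXD1, -0.18 to 0.13 for MXD3, -0.16 to 0.048 for MLX, -0.20 to 0.48 for MLXIPL, -0.32 to 0.098 for MGA, -0.55 to 0.13 for TXNIP, -0.50 to 0.025 for CDKN1A, -0.13 to 0.22 for FBXW7, -0.018 to 0.45 for FBXO28, -1.47 to 0.099 for RGS2, -0.83 to 0.39 for MAP3K1 and -0.83 to 0.23 for RSBN1. The difference between replicates 3 and 1 ranged from -0.15 to 0.074 for MAX and from -0.22 to 0.045 for MXI1. Depth limits MYCN and MYCL, which had 2 to 27 and 25 to 76 counts per library.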
